A study of Mus musculus with 9 samples.

Results

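Collagens are the main structural proteins of the extracellular matrix. Each molecule is built from 3 chains that wind around each other, and the chains are encoded by separate genes. Fibrillar collagens pack into the banded fibers of stroma and cartilage. Network collagens, led by type IV, form sheets such as the basement membrane on which mammary epithelium rests. The remaining families decorate fibers, form beaded microfibrils, or tie epithelial cells to the basement membrane. In the mammary gland most fibrillar collagen is made by stromal cells, whereas epithelial cells contribute basement membrane and hemidesmosome chains.

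The collagen genes examined here are all rows of the count table whose symbol is *Col*, a number, *a* and a number. The rule found 44 chains among 55228 genes, of which 11 were grouped as fibrillar, 9 as network and 24 as other collagens. Transcripts were counted by RNA-seq in 9 cultures of HC11 cells, a mouse mammary epithelial cell line that was kept undifferentiated in medium with 10% fetal bovine serum, 5 µg/mL insulin and 10 ng/mL EGF. There were 3 cultures of the parental line (*WT*) and 3 each of *KD1* and *KD2*, lines made by CRISPR/Cas9 with a different guide each against the planar cell polarity gene *Vangl2* and a repair template that carries stop codons. Each edited line was grown from a single colony and is therefore 1 clone, the labels call both lines knockouts, and no clone without a guide was analysed here. Cultures of 1 line carry replicate numbers in the labels, and nothing states that they came from separate thaws or clones, so p-values measure only the spread between these cultures.

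Depth ranged from 19231428 to 28360592 counts per culture. Values are CPM, the counts of a gene scaled to a common total through the TMM-adjusted library size, and each error beside a mean is the SD over 3 cultures. *Vangl2* itself had 66, 99 and 86 counts in *WT*, 75, 48 and 69 in *KD1* and 90, 118 and 90 in *KD2*. Relative to *WT* it stood at -0.63 on the log2 scale in *KD1* (adjusted p = 0.0058) and at 0.05 in *KD2* (adjusted p = 0.81). The transcript therefore gives no check on the *KD2* label, and an edit that ends translation need not alter it. Of 8 epithelial markers, 7 were detected in every line and *Krt19* had no count. Summed over these markers, *WT* cultures held 4881 to 5462 CPM, *KD1* cultures 5538 to 5678 CPM and *KD2* cultures 2942 to 3645 CPM. The largest members were *Krt5* and *Krt14*, at 2117 and 1527 CPM in *WT* and 1088 and 819 CPM in *KD2*. *Cdh1* and *Epcam* were also lower in *KD2*, whereas *Krt8* rose from 158 to 268 CPM. *Krt7* and *Krt18* stood at 0.04 and 0.13 on the log2 scale there. None of the 7 met the call rule given below against *WT* in either edited line.

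The chains share the repeat that allows 3 of them to wind together, in which glycine recurs at a fixed spacing. The start of the longest unbroken run of this repeat is shown for 6 chains of contrasting behavior in these data, as 60 bases of spliced coding sequence, 5′ to 3′, with the glycine codons in capitals. The sequences are from GENCODE transcripts of GRCm38, and the coordinates span any intron that interrupts the stretch. *Col5a1* lies at chr2:27964080-27965265 (+), *Col11a1* at chr3:114105402-114108295 (+), *Col4a5* at chrX:141656825-141664680 (+), *Col6a1* at chr10:76719653-76720996 (-), *Col12a1* at chr9:79612919-79613769 (-) and *Col17a1* at chr19:47664985-47665875 (-).
Col5a1: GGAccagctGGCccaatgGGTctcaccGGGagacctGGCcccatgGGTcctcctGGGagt
Col11a1: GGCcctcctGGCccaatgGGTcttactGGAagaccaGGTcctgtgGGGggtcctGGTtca
Col4a5: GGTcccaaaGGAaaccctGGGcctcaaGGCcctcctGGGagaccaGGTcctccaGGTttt
Col6a1: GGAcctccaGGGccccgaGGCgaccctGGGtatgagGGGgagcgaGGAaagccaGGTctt
Col12a1: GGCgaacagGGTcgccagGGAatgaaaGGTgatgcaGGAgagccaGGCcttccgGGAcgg
Col17a1: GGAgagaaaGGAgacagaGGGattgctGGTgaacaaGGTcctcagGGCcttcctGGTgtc

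*Col5a1* and *Col11a1*, which encode chains of type V and type XI collagen, had 43 of these 60 bases in common. *Col5a1* had 25 to 28 bases in common with each of the other four, and every pair shares at least the first letters of the glycine codons by construction. The runs also set the fibrillar class apart in length. In the 11 fibrillar chains the longest run held 216 to 344 consecutive glycine codons spaced 3 codons apart, with 216 in *Col24a1*, 217 in *Col27a1* and 337 to 344 in the others. It held 39 to 66 such codons in the 9 network chains and 23 to 113 in the 24 other chains.

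Expression was compared between lines to ask which collagen transcripts accompany loss of *Vangl2*, and whether both clones moved alike. Calls were made with the quasi-likelihood test of edgeR and needed both an adjusted p below 0.05 and a fold change of more than 1 on the log2 scale in either direction. The expression filter passed 30 of the 44 chains and 15253 genes in all. Of these 30 chains, 20 were lower and 3 higher in *KD1* than in *WT*, against 7.49% and 9.34% of all genes tested. In *KD2*, 2 were lower and 13 higher than in *WT*, against 6.71% and 14.5% of all genes tested. Between the edited lines, 21 chains were higher and 1 was lower in *KD2* than in *KD1*, against 14.7% and 8.58% of all genes tested. The 2 comparisons with *WT* share the same control cultures. Of the chains, 10 were called lower in *KD1* and higher in *KD2*, and 7 of those 10 were fibrillar. The same pair of calls was made for 1.72% of all genes tested.

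Of the 30 chains, 26 had at least 10 counts in every *WT* culture. The exceptions were *Col5a2*, *Col5a3*, *Col15a1* and *Col28a1*. The cultures of *KD1* and *WT* did not overlap for 27 of the 30 chains, against 68.8% of all genes tested. For *KD2* and *WT* they did not overlap for 24 chains, against 67.9%, and for *KD2* and *KD1* for 28 chains, against 71.6%. In bulk RNA, fewer cells that make a transcript and less transcript per cell cannot be told apart.

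**Figure D1:**
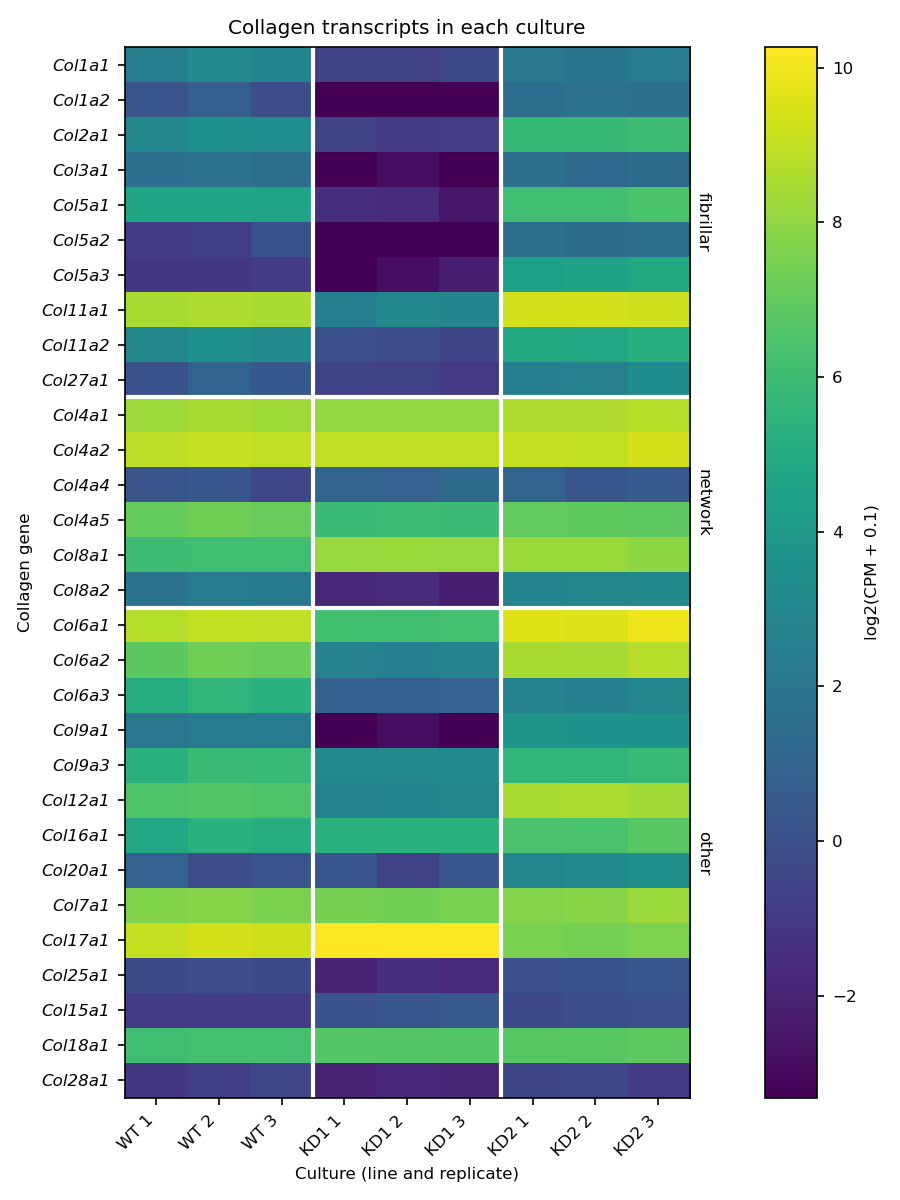
Level of the 30 collagen chains that passed the filter in each of the 9 cultures, as log2(CPM + 0.1), with rows grouped as fibrillar, network and other. The fibrillar rows are darkest in the 3 KD1 cultures, and Col4a1, Col4a2 and Col7a1 keep a similar color across all 9.

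Fibrillar chains were lower in *KD1*, and most of them were higher in *KD2*. Of 11 fibrillar chains, the 10 that passed the filter were all lower in *KD1* than in *WT*, 7 were higher in *KD2* than in *WT*, and all 10 were higher in *KD2* than in *KD1*. The filter reads all 3 lines, so a chain can pass it through the line where it is high. *Col5a3*, among the 7 higher in *KD2*, passed it only through *KD2*. With only the 6 cultures of *KD1* and *WT*, *Col5a3* and *Col28a1* missed the filter. Of 28 chains tested, 18 were lower and 4 higher in *KD1*, and all 9 fibrillar chains tested were among the lower. Of all 14344 genes tested in that fit, 965 were lower and 1396 higher. Summed over the class, *WT* held 437 ± 31.9 CPM, *KD1* 9.45 ± 1.08 CPM and *KD2* 837 ± 14.8 CPM. The median fitted log2 fold change over these 10 chains was -5.08 in *KD1*, or -4.17 with the 2 chains at no count set to their bound, and 1.67 in *KD2*. The medians over all genes tested were -0.03 and 0.01.

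*Col11a1*, the alpha 1 chain of type XI collagen that nucleates thin fibrils, carried most of this sum. Its levels were 356, 407 and 377 CPM in *WT*, 5.65, 7.90 and 7.02 CPM in *KD1* and 635, 635 and 610.3 CPM in *KD2*. All *KD1* cultures lay far below the others and all *KD2* cultures lay above *WT*. The log2 fold change was -5.79 ± 0.10 (SE, adjusted p = 3.1e-14) in *KD1* and 0.72 ± 0.08 (SE, adjusted p = 2.0e-06) in *KD2*, the latter short of the fold threshold. *Col11a2*, which encodes a partner chain in type XI, had 7.58, 11.1 and 9.03 CPM in *WT*, 0.886, 0.826 and 0.605 CPM in *KD1* and 30.2, 29.1 and 36.1 CPM in *KD2*. It fell in *KD1*, with a log2 fold change of -3.58 ± 0.20 (SE, adjusted p = 3.1e-09), and rose in *KD2* by 1.77 ± 0.13 (SE, adjusted p = 3.2e-08), with no overlap between any lines.

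Type V collagen, which joins type I fibrils and limits their width, is encoded by *Col5a1*, *Col5a2* and *Col5a3*. *Col5a1* was measured at 25.3, 25.0 and 24.4 CPM in *WT*, 0.258, 0.236 and 0.0807 CPM in *KD1* and 67.4, 68.2 and 85.9 CPM in *KD2*. The *KD1* cultures held 7, 6 and 2 counts of this gene. The log2 fold change was -6.97 ± 0.21 (SE, adjusted p = 3.4e-12) in *KD1* and 1.57 ± 0.10 (SE, adjusted p = 7.8e-09) in *KD2*. The level of *Col5a3* was 0.359, 0.360 and 0.439 CPM in *WT*, 0, 0.0393 and 0.121 CPM in *KD1* and 21.3, 22.3 and 30.9 CPM in *KD2*, low in *WT* and *KD1* and high in every *KD2* culture. It rose in *KD2* by 5.99 ± 0.24 (SE, adjusted p = 1.3e-10), the largest log2 rise against *WT* among the 30 chains. Only its level in *KD2* let the chain pass the filter, so this rank carries no separate weight. The value in *KD1* was a log2 fold change of -2.78 ± 0.75 (SE, adjusted p = 0.0058), from *WT* cultures of 7 to 9 counts, and the chain entered that test only through its level in *KD2*. *Col5a2* was at 0.410, 0.480 and 0.976 CPM in *WT*, 0 CPM in every *KD1* culture and 3.19, 2.66 and 2.90 CPM in *KD2*. With no count in 3 *KD1* cultures it was at least 15.9-fold lower there than in *WT*, against a floor of 3 counts over the line, while its level in *KD2* rose by a log2 fold change of 2.23 ± 0.27 (SE, adjusted p = 1.6e-05).

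Type I collagen, the main fibril of stroma, is built from the products of *Col1a1* and *Col1a2*. *Col1a1* was at 5.53, 8.64 and 6.93 CPM in *WT*, 0.517, 0.511 and 0.686 CPM in *KD1* and 4.28, 3.83 and 5.02 CPM in *KD2*. It was lower in both edited lines without overlap, with a log2 fold change of -3.62 ± 0.23 (SE, adjusted p = 7.7e-09) in *KD1* and -0.71 ± 0.17 (SE, adjusted p = 0.0019) in *KD2*, and only the first passed the fold threshold. *Col1a2* went the other way in *KD2*, at 1.08, 1.60 and 0.830 CPM in *WT*, 0 CPM in every *KD1* culture and 2.87, 3.26 and 3.15 CPM in *KD2*. In *KD1* it was at least 30.9-fold lower than in *WT* against the floor of 3 counts, while its level in *KD2* rose by a log2 fold change of 1.38 ± 0.23 (SE, adjusted p = 1.9e-04). Per kb of exons, *Col1a1* exceeded *Col1a2* by a ratio of 11.9 ± 3.38 in *WT* and 2.69 ± 0.415 in *KD2*. With the longest transcript as length, which is much shorter than the merged exons for *Col1a2*, the ratios were 5.68 ± 1.61 and 1.28 ± 0.198. *Col3a1*, whose type III fibrils accompany type I in elastic tissues, was at 3.02, 3.20 and 2.88 CPM in *WT*, 0, 0.0393 and 0 CPM in *KD1* and 3.19, 2.26 and 2.71 CPM in *KD2*. A single count was left in *KD1*, a summed level 236-fold below *WT* (exact 95% interval 41.8 to 9348, counting error only), while *KD2* and *WT* overlapped (log2 fold change -0.17 ± 0.18 SE, adjusted p = 0.43).

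*Col3a1* and *Col5a2* are annotated beside each other on chromosome 1, at 45311538-45349706 on the plus strand and 45374321-45503282 on the minus strand of GRCm38. Both were at 0 or 1 count in every *KD1* culture. They parted in *KD2*, where *Col5a2* was called higher and *Col3a1* was not called. The median log2 fold change of the 911 tested genes on chromosome 1 was -0.05 in *KD1* and 0.14 in *KD2*.

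*Col2a1*, the cartilage fibril chain, was at 7.63, 11.2 and 10.0 CPM in *WT*, 0.517, 0.433 and 0.444 CPM in *KD1* and 54.8, 55.7 and 67.2 CPM in *KD2*. The lines were ordered *KD1*, *WT*, *KD2* with no overlap, and the log2 fold change was -4.36 ± 0.22 (SE, adjusted p = 8.2e-10) in *KD1* and 2.61 ± 0.12 (SE, adjusted p = 3.7e-10) in *KD2*. *Col27a1*, a fibrillar chain with a shorter triple helix, was at 0.973, 1.96 and 1.22 CPM in *WT*, 0.591, 0.550 and 0.403 CPM in *KD1* and 5.74, 5.86 and 9.59 CPM in *KD2*. It showed the same order of lines, with a log2 fold change of -1.45 ± 0.37 (SE, adjusted p = 0.0045) in *KD1* and 2.30 ± 0.26 (SE, adjusted p = 2.7e-06) in *KD2*. *Col24a1* missed the filter, with 2, 1 and 0 counts in *WT*, 0, 1 and 0 in *KD1* and 12, 9 and 7 in *KD2*.

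**Figure D2:**
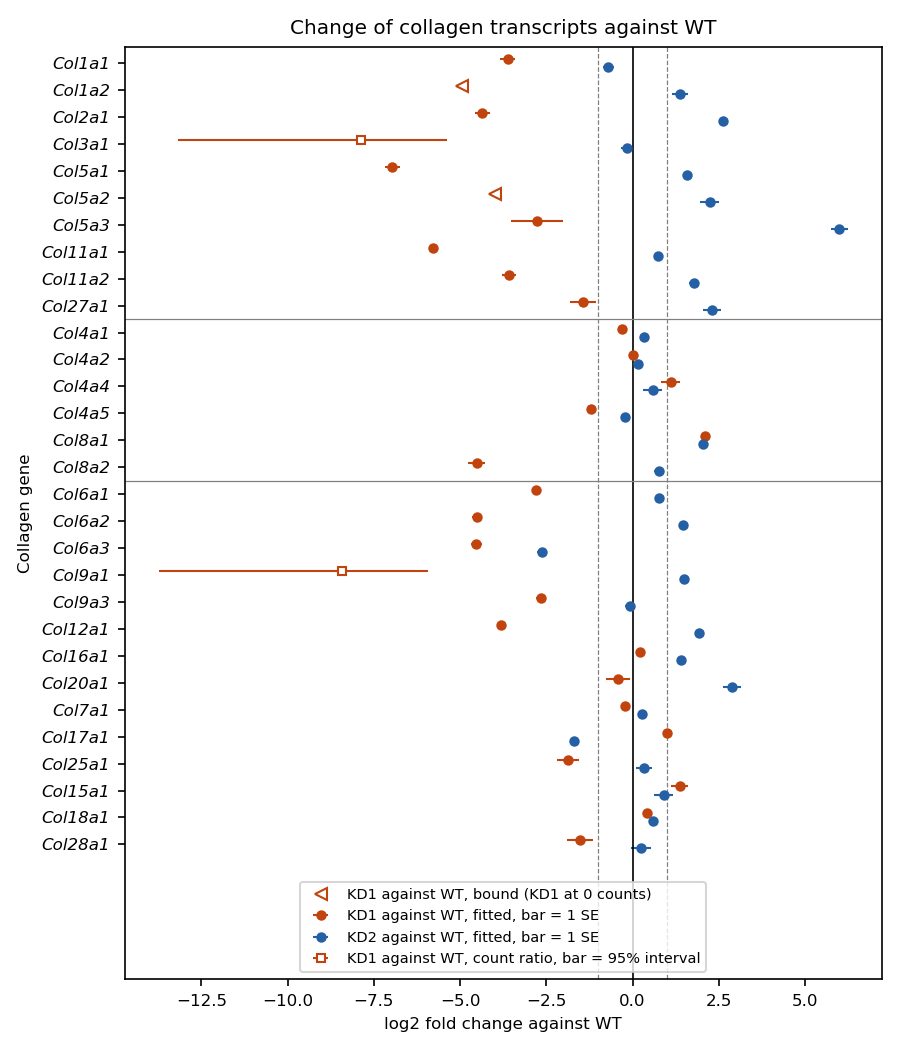
Log2 fold change against WT of the 30 collagen chains that passed the filter, in KD1 and KD2, with bars of 1 SE (95% interval for the 2 count ratios) and dashed lines at the fold threshold. Open triangles are bounds for Col1a2 and Col5a2, which had no count in KD1. The 10 fibrillar chains at the top all lie left of the threshold in KD1, and Col8a1 is the chain to the right of it in both lines.

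Promoter sequence was examined because these chains moved together. RefSeq windows on GRCm38.p6 covered 35 of the 44 chains, in 38 windows. The 250 bases before the annotated start are shown for 3 fibrillar chains that fell in *KD1* and for *Col8a1*, which rose in both lines. Each is written 5′ to 3′ on the strand of the gene, and capitals mark matches to a CCAAT box (CCAAT), a GC box (GGGCGG) or a TATA box (TATAAA) on either strand. The windows are chr2:27886175-27886424 (+) for *Col5a1*, chr3:114030290-114030539 (+) for *Col11a1*, chr17:34038888-34039137 (+) for *Col11a2* and chr16:57754738-57754987 (-) for *Col8a1*.
Col5a1 promoter: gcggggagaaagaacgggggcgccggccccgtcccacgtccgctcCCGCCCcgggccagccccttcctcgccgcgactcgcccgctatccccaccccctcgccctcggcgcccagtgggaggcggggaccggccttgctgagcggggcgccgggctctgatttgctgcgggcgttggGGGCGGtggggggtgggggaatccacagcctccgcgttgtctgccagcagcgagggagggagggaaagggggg
Col11a1 promoter: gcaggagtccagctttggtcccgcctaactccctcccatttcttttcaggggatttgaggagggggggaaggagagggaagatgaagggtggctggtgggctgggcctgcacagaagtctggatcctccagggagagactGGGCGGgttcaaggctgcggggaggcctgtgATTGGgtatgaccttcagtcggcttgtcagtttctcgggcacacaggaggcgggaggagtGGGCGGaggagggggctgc
Col11a2 promoter: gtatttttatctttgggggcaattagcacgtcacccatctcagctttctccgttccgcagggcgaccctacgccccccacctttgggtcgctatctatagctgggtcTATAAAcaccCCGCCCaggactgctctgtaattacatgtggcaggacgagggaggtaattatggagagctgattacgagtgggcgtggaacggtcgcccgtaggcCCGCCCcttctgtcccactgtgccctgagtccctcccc
Col8a1 promoter: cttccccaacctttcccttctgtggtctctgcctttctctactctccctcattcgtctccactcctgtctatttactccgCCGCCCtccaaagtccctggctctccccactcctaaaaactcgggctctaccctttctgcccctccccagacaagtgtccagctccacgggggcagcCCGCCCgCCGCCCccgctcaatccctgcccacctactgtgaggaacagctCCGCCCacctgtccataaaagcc

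All 4 windows hold a GC box, which was found in 22 of the 38 collagen windows (57.9%) and in 32.7% of the 32851 windows in the table. The CCAAT box, present here in *Col11a1* alone, was found in 34.2% of collagen windows and 33.8% of all windows. The TATA box, present here in *Col11a2* alone, was found in 13.2% and 12.4%. Among the other fibrillar chains with a window, *Col1a2*, *Col5a3* and *Col27a1* had a GC box. *Col3a1*, also lower in *KD1*, had a TATA box and no GC box, and *Col24a1* had no match. The 4 windows shown do not separate the chain that rose in both lines from those that fell in *KD1* by these letters. A match is not a measured binding site.

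The network collagens were called in both directions in *KD1*. Of 6 chains that passed the filter, *KD1* had 2 higher and 2 lower (33.3% each, against 9.34% and 7.49% of all genes tested), and *KD2* had 1 higher (16.7%, against 14.5%). The class median on the log2 scale was -0.15 for *KD1* and 0.46 for *KD2*. *Col4a1* and *Col4a2*, which together make the common basement membrane heterotrimer, passed no fold threshold in any comparison. The level of *Col4a1* was 329 ± 23.9 CPM in *WT*, 267 ± 0.476 in *KD1* and 416 ± 29.1 in *KD2*, and that of *Col4a2* was 506 ± 35.4, 505 ± 5.65 and 569 ± 63.3 CPM. *Col4a1* had a log2 fold change of -0.30 (adjusted p = 0.0014) in *KD1* and 0.34 (adjusted p = 4.3e-04) in *KD2*. It differed by 0.64 (adjusted p = 1.0e-06) between *KD2* and *KD1*, with no overlap between any lines. *Col4a2* had -0.0024, 0.17 and 0.17 (adjusted p = 0.98, 0.059 and 0.055). Both genes start from 1 stretch of chromosome 8 in opposite directions, and their annotated starts overlap by 22 bases. The median over 834 tested genes there was -0.27 in *KD1* and -0.19 in *KD2*, and its part in these values was not tested. Per kb of exons, the ratio of *Col4a1* to *Col4a2* was 0.576 ± 0.0015 in *WT*, 0.468 ± 0.0044 in *KD1* and 0.649 ± 0.027 in *KD2*, with no overlap between lines.

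*Col4a5*, which encodes a chain of a second type IV network, was at 132, 158 and 140.0 CPM in *WT*, 61.1, 63.5 and 61.5 CPM in *KD1* and 127, 125 and 119.9 CPM in *KD2*. It fell in *KD1*, with a log2 fold change of -1.21 ± 0.07 (SE, adjusted p = 2.8e-09), and had -0.21 ± 0.07 (SE, adjusted p = 0.012) in *KD2*. It lies on the X chromosome, where the median over 449 tested genes was -0.63 in *KD2* and -0.09 in *KD1*, and the part of this shift in its value was not tested. *KD2* and *KD1* differed by 0.997 on the log2 scale, short of the threshold, and 4 of 16 alternatives put it past, at 1.01 to 1.12. *Col4a4*, another type IV chain, was at 1.02, 1.20 and 0.635 CPM in *WT*, 1.92, 1.81 and 2.50 CPM in *KD1* and 1.90, 1.10 and 1.38 CPM in *KD2*. All *KD1* cultures lay above *WT*, with a log2 fold change of 1.10 ± 0.27 (SE, adjusted p = 0.0029), while the *KD2* cultures overlapped both lines. The call in *KD1* ended without *WT* replicate 3 (0.91) or *KD1* replicate 3 (0.95).

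*Col8a1* and *Col8a2* encode the 2 chains of type VIII collagen, a short-chain network of basement membranes. *Col8a1* was at 67.0, 69.2 and 67.6 CPM in *WT*, 288, 302 and 286 CPM in *KD1* and 297, 300.5 and 249 CPM in *KD2*. It was the single chain called higher in both edited lines, by a log2 fold change of 2.10 ± 0.07 (SE, adjusted p = 1.4e-11) in *KD1* and 2.05 ± 0.07 (SE, adjusted p = 4.3e-11) in *KD2*. The edited lines overlapped each other, with a log2 difference of -0.05 ± 0.07 (SE, adjusted p = 0.54). Its partner *Col8a2* was at 3.53, 4.88 and 4.35 CPM in *WT*, 0.185, 0.236 and 0.121 CPM in *KD1* and 6.71, 7.19 and 7.97 CPM in *KD2*. It was lower in *KD1*, with a log2 fold change of -4.52 ± 0.25 (SE, adjusted p = 2.5e-09), and stood at 0.76 ± 0.14 (SE, adjusted p = 2.7e-04) in *KD2*. The chains of type VIII were thus called in opposite directions in *KD1*.

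Type VI collagen forms beaded microfibrils from the products of *Col6a1*, *Col6a2* and a further chain, most often that of *Col6a3*. *Col6a1* was at 432, 527 and 501 CPM in *WT*, 70.3, 68.6 and 72.5 CPM in *KD1* and 786, 740.3 and 963 CPM in *KD2*. Every *KD1* culture was below and every *KD2* culture above *WT*, with a log2 fold change of -2.79 ± 0.10 (SE, adjusted p = 1.9e-11) in *KD1* and 0.77 ± 0.09 (SE, adjusted p = 5.7e-06) in *KD2*. *Col6a2* followed the same order at 114, 160.0 and 149 CPM in *WT*, 6.31, 5.74 and 6.41 CPM in *KD1* and 366, 354 and 450.1 CPM in *KD2*. On the log2 scale this was -4.52 ± 0.14 (SE, adjusted p = 6.6e-12) in *KD1* and 1.47 ± 0.11 (SE, adjusted p = 7.6e-08) in *KD2*.

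*Col6a3* broke with its partners in *KD2*. It was at 33.7, 48.6 and 40.1 CPM in *WT*, 1.74, 1.73 and 1.86 CPM in *KD1* and 6.71, 5.83 and 7.38 CPM in *KD2*. It was the single chain called lower in both edited lines, with a log2 fold change of -4.53 ± 0.16 (SE, adjusted p = 1.4e-11) in *KD1* and -2.64 ± 0.13 (SE, adjusted p = 8.7e-10) in *KD2*. Per kb of exons, *Col6a2* exceeded *Col6a3* by a ratio of 4.97 ± 0.320 in *WT* and 4.99 ± 0.231 in *KD1*, but by 84.4 ± 5.30 in *KD2*. The ratio of *Col6a1* to *Col6a2* was 6.63 ± 0.525 in *WT*, 21.8 ± 0.811 in *KD1* and 4.04 ± 0.0597 in *KD2*. By longest transcript these were 4.18 ± 0.331, 13.7 ± 0.511 and 2.55 ± 0.0376. The alternative further chains *Col6a4*, *Col6a5* and *Col6a6* missed the filter, with at most 2, 6 and 1 counts in any culture.

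The fibril-associated collagens with interrupted triple helices (FACIT) coat other fibrils and link them to neighboring molecules. Of 9 chains, 5 passed the filter, 3 of them fell in *KD1* and 4 rose in *KD2*. These are 60% and 80% of a small list, against 7.49% and 14.5% of all genes tested. *Col12a1*, which is common around type I fibrils, was at 90.9, 103 and 91.7 CPM in *WT*, 6.13, 6.84 and 7.34 CPM in *KD1* and 374, 383 and 334 CPM in *KD2*. The lines were ordered *KD1*, *WT*, *KD2* with wide gaps, at a log2 fold change of -3.82 ± 0.09 (SE, adjusted p = 3.8e-13) in *KD1* and 1.93 ± 0.08 (SE, adjusted p = 9.5e-11) in *KD2*. *Col9a1* and *Col9a3* encode chains of type IX, which coats cartilage fibrils. *Col9a1* was at 4.00, 4.72 and 4.49 CPM in *WT*, 0, 0.0393 and 0 CPM in *KD1* and 12.9, 12.2 and 12.5 CPM in *KD2*. With 1 count in *KD1* its summed level there was 342-fold below *WT* (exact 95% interval 61.0 to 13580.0, counting error only), and it rose in *KD2* by a log2 fold change of 1.50 ± 0.12 (SE, adjusted p = 1.0e-07). *Col9a3* was at 40.2, 61.9 and 59.5 CPM in *WT*, 8.68, 8.38 and 8.63 CPM in *KD1* and 47.6, 47.9 and 57.1 CPM in *KD2*. The *KD1* level was lower, with a log2 fold change of -2.66 ± 0.15 (SE, adjusted p = 2.3e-09), and *KD2* overlapped *WT* (-0.09 ± 0.13 SE, adjusted p = 0.55). Of its exon bases, 6.07% are also covered by *Tcfl5* on the opposite strand, and whether counting used the strand is not given in the sources used here.

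The other FACIT chains, *Col16a1* and *Col20a1*, were not called in *KD1*. *Col16a1*, a minor matrix component, was at 27.8, 40.8 and 35.6 CPM in *WT*, 39.8, 40.8 and 41.4 CPM in *KD1* and 83.1, 82.8 and 112 CPM in *KD2*. *KD1* overlapped *WT* (log2 fold change 0.22 ± 0.13 SE, adjusted p = 0.17), and *KD2* was higher by 1.41 ± 0.13 (SE, adjusted p = 4.4e-07). *Col20a1* was at 1.84, 0.840 and 1.03 CPM in *WT*, 1.11, 0.511 and 1.09 CPM in *KD1* and 7.48, 8.42 and 10.9 CPM in *KD2*. *KD1* overlapped *WT* here too (log2 fold change -0.42 ± 0.35 SE, adjusted p = 0.34), and *KD2* was higher by 2.87 ± 0.26 (SE, adjusted p = 3.4e-07).

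The epithelial chain *Col17a1* had the opposite order of lines to most fibrillar chains. It encodes a transmembrane collagen of hemidesmosomes, which anchor basal epithelial cells. Its levels were 543, 674 and 606 CPM in *WT*, 1216, 1231 and 1192 CPM in *KD1* and 185, 170.2 and 201 CPM in *KD2*. All *KD1* cultures were above *WT* and all *KD2* cultures below it. The log2 fold change was 0.998 ± 0.08 (SE, adjusted p = 8.7e-08) in *KD1*, just short of the fold threshold, -1.71 ± 0.08 (SE, adjusted p = 5.0e-10) in *KD2* and -2.71 ± 0.08 (SE, adjusted p = 2.2e-12) between *KD2* and *KD1*. Of 16 alternatives, 13 put the change in *KD1* past the threshold, among them DESeq2 at 1.01, and leaving out single cultures gave 0.92 to 1.10. Whether this chain is called in *KD1* therefore depends on the setting. It was the only chain of 30 called lower in *KD2* than in *KD1*. *Col7a1*, the anchoring fibril chain that ties the basement membrane to the stroma below, was called in no comparison, at 206 ± 15.7 CPM in *WT*, 176 ± 8.65 in *KD1* and 249 ± 46.6 in *KD2*.

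The remaining chains were called in 1 line or in neither. *Col25a1*, a transmembrane collagen, was at 0.717, 0.840 and 0.732 CPM in *WT*, 0.148, 0.275 and 0.202 CPM in *KD1* and 0.889, 0.965 and 1.08 CPM in *KD2*. It was lower in *KD1* (log2 fold change -1.86 ± 0.31 SE, adjusted p = 1.7e-04) and stood at 0.34 ± 0.23 (SE, adjusted p = 0.25) in *KD2*. *Col28a1* was at 0.359, 0.480 and 0.635 CPM in *WT*, 0.148, 0.197 and 0.161 CPM in *KD1* and 0.606, 0.666 and 0.443 CPM in *KD2*. It was called lower in *KD1* (log2 fold change -1.52 ± 0.39 SE, adjusted p = 0.0039), where the *WT* cultures held 7 to 13 counts, and was not tested when only *KD1* and *WT* were fitted. *KD2* overlapped *WT*.

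*Col15a1* and *Col18a1* encode the multiplexins of the basement membrane zone. *Col15a1* was at 0.410, 0.440 and 0.439 CPM in *WT*, 0.923, 1.14 and 1.29 CPM in *KD1* and 0.687, 0.865 and 0.885 CPM in *KD2*. It rose in *KD1* (log2 fold change 1.36 ± 0.26 SE, adjusted p = 4.5e-04) and was 0.91 ± 0.27 (SE, adjusted p = 0.0095) in *KD2*. *Col18a1*, the source of endostatin, was at 73.8 ± 3.62 CPM in *WT*, 99.5 ± 1.65 in *KD1* and 110.4 ± 8.72 in *KD2*, with log2 fold changes of 0.43 and 0.58 against *WT*.

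The other chains were at the edge of detection. Of the 14 that missed the filter, the highest counts in any culture were 13 for *Col9a2*, 12 for *Col24a1*, 11 for *Col4a3*, 8 each for *Col10a1* and *Col22a1*, 6 each for *Col14a1* and *Col6a5*, 4 for *Col23a1*, 2 each for *Col4a6* and *Col6a4* and 1 each for *Col6a6* and *Col19a1*. *Col13a1* and *Col26a1* had no count in any culture. A summed count above 3 was seen for 35 chains in *WT*, 30 in *KD1* and 39 in *KD2*.

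Comparing levels between chains requires a scale per length, and CPM was divided by the kb of merged exons of each gene. On this scale *WT* was led by *Col6a1* at 111 ± 11.2 CPM per kb, *Col17a1* at 101 ± 10.9 and *Col4a2* at 76.4 ± 5.34. The means of the first 2 differed by less than their SD, but *Col6a1* stood above *Col17a1* in every *WT* culture. In *KD1*, *Col17a1* led at 202 ± 3.34 CPM per kb, 48.2% of the summed collagen level, before *Col4a2* at 76.3 ± 0.854. *Col8a1* and *Col4a1* followed at 37.3 ± 1.13 and 35.7 ± 0.0637. In *KD2*, *Col6a1* led at 189 ± 26.8 CPM per kb, 29.8% of the sum, before *Col4a2* at 86.0 ± 9.57 and *Col4a1* at 55.7 ± 3.90. By longest transcript, *Col11a1* and *Col6a2* stood above *Col4a1* in *KD2*, and the first 2 places were as given.

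**Figure D3:**
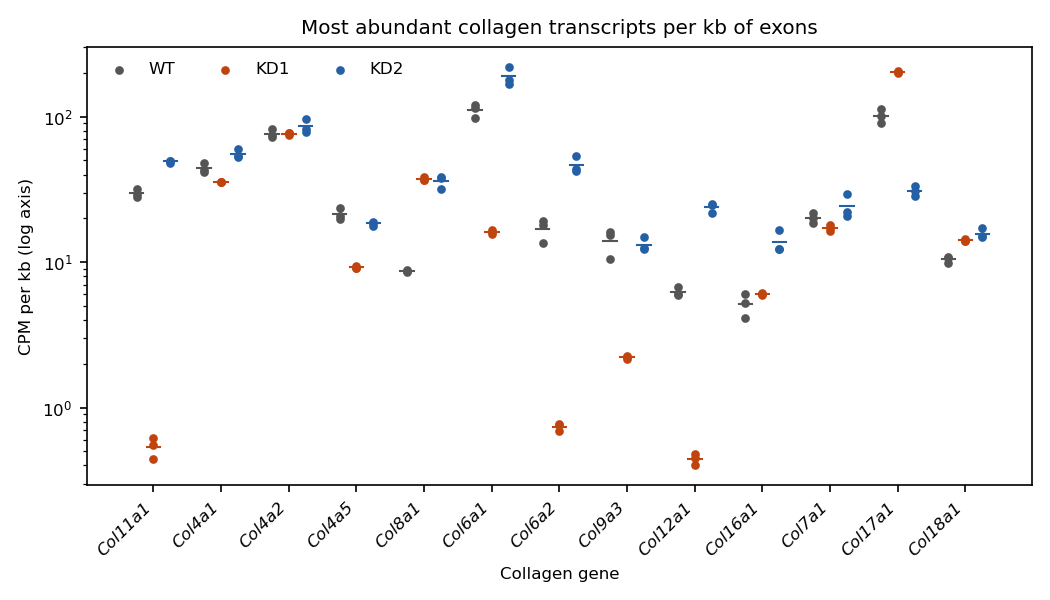
CPM per kb of merged exons, on a log axis, of the collagen chains that ranked in the first 10 in any line, with a point per culture and a line at the mean of 3. Col17a1 is highest in KD1 and lowest in KD2, and Col11a1, Col6a2 and Col12a1 are lowest in KD1.

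The summed level and its makeup by class were compared per kb as well. The summed level was 478 ± 43.6 CPM per kb in *WT*, 419 ± 2.33 in *KD1* and 636 ± 55.4 in *KD2*. All collagen chains together took 0.316% of counts in *WT*, 0.267% in *KD1* and 0.479% in *KD2*. Fibrillar chains made up 7.71 ± 0.142% of the summed per-kb level in *WT*, 0.205 ± 0.0196% in *KD1* and 11.8 ± 0.628% in *KD2*. Network chains made up 31.7 ± 1.09%, 37.9 ± 0.119% and 31.2 ± 1.18%.

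**Figure D4:**
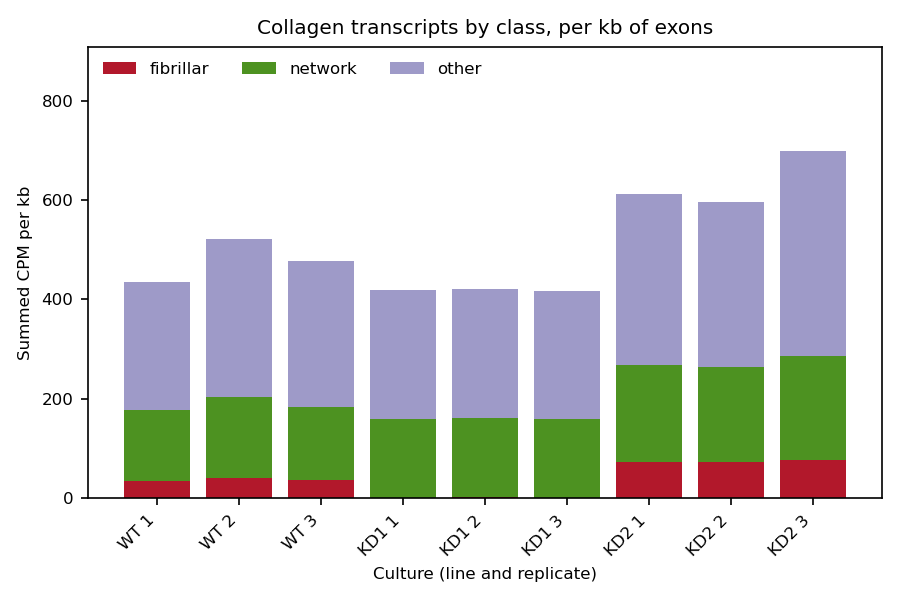
Summed CPM per kb of all 44 collagen chains in each culture, stacked by class from 0. The fibrillar block is too thin to see in the 3 KD1 cultures, at 0.861 CPM per kb on average, and averages 36.8 in WT and 74.7 in KD2.

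Collagen chains are modified, folded, trimmed and cross-linked by dedicated enzymes, and these were counted as lists. Of 37 listed genes, 31 passed the filter, and *KD1* had 4 of them higher and 8 lower, while *KD2* had 11 higher and 1 lower. As shares of the 31, these were 12.9% and 25.8% in *KD1*, against 9.34% and 7.49% of all genes tested, and 35.5% and 3.23% in *KD2*, against 14.5% and 6.71%. The shorter lists within it are small, and the same shares of all genes apply to them. *P4ha3* and *Loxl1*, among the 11 genes higher in *KD2*, passed the filter only through that line, which favored a call there. The list median on the log2 scale was -0.08 for *KD1* and 0.53 for *KD2*. Among 14 prolyl and lysyl modification genes tested, 2 were higher and 3 lower in *KD1*, and 5 were higher in *KD2*. Among 7 folding and export genes, 2 were higher in *KD1* and 1 in *KD2*.

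*P4ha2*, a prolyl 4-hydroxylase subunit that stabilizes the triple helix, was at 6.45, 8.32 and 7.91 CPM in *WT*, 19.2, 18.4 and 16.9 CPM in *KD1* and 16.0, 16.7 and 20.0 CPM in *KD2*. Both edited lines lay above *WT*, with a log2 fold change of 1.26 ± 0.11 (SE, adjusted p = 4.2e-07) in *KD1* and 1.20 ± 0.11 (SE, adjusted p = 5.7e-07) in *KD2*. *Fkbp14*, a prolyl isomerase of the endoplasmic reticulum, was likewise raised in both, at 1.18, 1.64 and 1.61 CPM in *WT*, 11.7, 11.4 and 11.1 CPM in *KD1* and 10.8, 10.9 and 8.90 CPM in *KD2*. On the log2 scale this was 2.93 ± 0.14 (SE, adjusted p = 5.1e-10) in *KD1* and 2.78 ± 0.14 (SE, adjusted p = 1.3e-09) in *KD2*.

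The prolyl 3-hydroxylase family split in *KD1*, where *P3h2* rose and *P3h1*, *P3h3* and *P3h4* fell. *P3h1* stood at -1.35 (adjusted p = 2.2e-06) and *P3h4* at -1.23 (adjusted p = 6.7e-06) on the log2 scale there. Neither was called in *KD2* against *WT*. *P3h2*, which acts on basement membrane collagen, was at 41.7, 44.4 and 40.9 CPM in *WT*, 292, 289 and 299 CPM in *KD1* and 65.0, 60.1 and 64.8 CPM in *KD2*. It rose in *KD1* (log2 fold change 2.79 ± 0.06 SE, adjusted p = 1.5e-13), and *KD2* was 0.58 ± 0.06 (SE, adjusted p = 1.3e-06). *P3h3* was at 2.77, 2.96 and 2.34 CPM in *WT*, 0.923, 0.786 and 1.25 CPM in *KD1* and 5.09, 5.29 and 7.03 CPM in *KD2*, falling in *KD1* (log2 fold change -1.45 ± 0.22 SE, adjusted p = 6.9e-05) and rising in *KD2* (1.09 ± 0.17 SE, adjusted p = 7.8e-05). *P4ha3*, a further prolyl 4-hydroxylase subunit, had 5 counts over *WT*, 1 over *KD1* and 111 over *KD2*, with a log2 fold change of 4.19 ± 0.48 (SE, adjusted p = 3.4e-06) in *KD2*. The gene passed the filter only through *KD2*. *Serpinh1*, the collagen chaperone HSP47, was called in no comparison, and had the largest difference of its list between the edited lines (log2 fold change 0.57 ± 0.08 SE, adjusted p = 2.7e-05).

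Fibrillar procollagen is trimmed at its ends before it packs into fibers. Of 6 trimming genes tested, 4 were lower and none was higher in *KD1*, and 2 were higher and 1 lower in *KD2*. *Adamts14*, a procollagen N-proteinase, was at 15.9, 17.1 and 17.0 CPM in *WT*, 5.72, 5.50 and 5.16 CPM in *KD1* and 67.9, 66.7 and 90.8 CPM in *KD2*. This enzyme fell in *KD1* (log2 fold change -1.61 ± 0.13 SE, adjusted p = 1.6e-07) and rose in *KD2* (2.17 ± 0.11 SE, adjusted p = 1.1e-09). *Adamts2* and *Adamts3*, of the same family, had no count in 3 *KD1* cultures and were at least 17.8-fold and 23.4-fold lower there than in *WT*. *Adamts3* fell in *KD2* as well, by a count ratio of 22.7 (exact 95% interval 7.41 to 113).

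Among 4 cross-linking enzymes tested, 1 was lower in *KD1* and 3 were higher in *KD2*. *Loxl3*, a lysyl oxidase, was at 52.1, 73.8 and 65.3 CPM in *WT*, 14.6, 14.6 and 14.4 CPM in *KD1* and 196, 194 and 239.6 CPM in *KD2*. The lines were ordered *KD1*, *WT*, *KD2* without overlap, with a log2 fold change of -2.13 ± 0.12 (SE, adjusted p = 3.0e-09) in *KD1* and 1.72 ± 0.11 (SE, adjusted p = 1.1e-08) in *KD2*. *Loxl1* had 2 counts over *WT*, 5 over *KD1* and 55 over *KD2*, a count ratio of *KD2* to *WT* of 23.8 (exact 95% interval 6.28 to 201.5). It is 1 of the 3 called higher in *KD2* and passed the filter only through that line.

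Among 8 collagen receptors tested, *KD1* had 2 higher and 1 lower, while *KD2* had 5 higher and 1 lower. As shares of the 8, these were 25% and 12.5% in *KD1*, against 9.34% and 7.49% of all genes tested. In *KD2* they were 62.5% and 12.5%, against 14.5% and 6.71%, and each lower share is a single gene. *Itga2*, the collagen-binding partner of integrin beta 1 in epithelium, was at 2.41, 1.20 and 1.66 CPM in *WT*, 241, 248 and 243 CPM in *KD1* and 0.728, 0.433 and 0.836 CPM in *KD2*. It was high in *KD1* alone, with a log2 fold change of 7.15 ± 0.14 (SE, adjusted p = 6.3e-14) in *KD1* and -1.41 ± 0.28 (SE, adjusted p = 4.6e-04) in *KD2*. *Ddr2*, a receptor tyrosine kinase for fibrillar collagen, went the opposite way at 3.02, 1.48 and 1.37 CPM in *WT*, 0.480, 0.629 and 0.565 CPM in *KD1* and 19.9, 18.8 and 17.5 CPM in *KD2*. On the log2 scale this was -1.78 ± 0.31 (SE, adjusted p = 2.5e-04) in *KD1* and 3.28 ± 0.19 (SE, adjusted p = 4.3e-09) in *KD2*. *Itga11*, an integrin subunit for fibrillar collagen, was low throughout but higher in both edited lines, at a log2 fold change of 1.26 ± 0.43 (SE, adjusted p = 0.023) and 2.37 ± 0.37 (SE, adjusted p = 6.8e-05). It had 2, 4 and 4 counts in *WT*, 12, 9 and 8 in *KD1* and 19, 20 and 22 in *KD2*. It passed the filter only through *KD2*, so both counts of higher receptors include a gene admitted by that line. Of 8 collagen-binding matrix partners only *Sparc* and *Hspg2* passed the filter, and both rose in *KD2*, by a log2 fold change of 1.31 ± 0.07 (SE, adjusted p = 1.3e-09) and 1.21 ± 0.08 (SE, adjusted p = 2.0e-08).

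Markers of other cells that make collagen were counted beside these results. Summed over 8 fibroblast markers, *WT* cultures held 7.84 to 10.0 CPM, *KD1* cultures 7.50 to 9.93 CPM and *KD2* cultures 81.2 to 90.0 CPM. The rise in *KD2* was mostly *Pdgfrb*, at 0.823 CPM in *WT*, 0.142 in *KD1* and 66.8 in *KD2*, together with *Pdgfra* at 7.96, 8.40 and 16.4 CPM. *Fap* had 1 count over *WT*, 5 over *KD1* and 24 over *KD2*, and *Pi16* had 19, 2 and 35. *Dpt*, *Thy1*, *Mfap5* and *Clec3b* had at most 0, 1, 3 and 4 counts in any culture. The fibroblast matrix genes *Dcn* and *Lum* had at most 6 and 3. Over the lines, *Dcn* had 0 counts in *WT*, 1 in *KD1* and 9 in *KD2*, and *Lum* had 0, 0 and 9. Summed over 6 pericyte or smooth muscle markers, levels were 35.4 to 42.8 CPM in *WT*, 51.6 to 54.0 in *KD1* and 54.6 to 62.3 in *KD2*, and most of each sum was *Notch3*. Of the 5 tested, *Cnn1* and *Des* were called higher in *KD2*, from 6 and 4 counts over *WT* to 233 and 158 over *KD2*, or 33.6-fold and 34.2-fold per summed library. Both passed the filter only through *KD2*. *Cspg4* and *Myh11* were called lower in *KD1*, by 2.21-fold and 3.70-fold. Summed endothelial, leukocyte and adipocyte markers were at most 5.70, 8.53 and 0.256 CPM in any culture. The part of these shifts in the collagen values was not tested.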

How the data were processed

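RNA was measured in 9 cultures, grouped by the line named in the labels, and 0 columns were left without a culture. The table that the authors deposited holds raw read counts, in whole numbers, for genes named by symbol. Per the methods, reads were trimmed with fastp, mapped to GRCm38 with HISAT2 and counted with featureCounts. Collagen chains, gene lists and tests were chosen with earlier results of these data known.

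Counts were tested with edgeR 4.0.16 in R 4.3.3 (quasi-likelihood test, filterByExpr over the 3 lines, TMM factors, 1 fit of all 9 cultures, no replicate block), with Benjamini-Hochberg adjustment over 15253 genes. The test was checked on simulated data. Depth was 19231428 to 28360592 counts per culture, and a floor of 3 counts over a line was used where it had none. Intervals and floors cover counting error only. Standard errors were derived from the F statistic, and no fitted fold change is given for a line with under 4 counts.

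Values were given in every culture for each chain called in at least 1 of the 3 comparisons, as means or ranges for chains called in none, and as highest counts for chains below the filter. Listed pathway genes were named when called in both lines or when their change was the largest of their list in any of the 3 comparisons. *P3h1* and *P3h4* were added beside their family. Lengths, positions and overlaps came from GENCODE M21, not the release in the methods, to which 53569 symbols matched and 1659 did not match. Sequences were taken from GENCODE transcripts and RefSeq promoters. DESeq2 1.42.0, other scalings, filters and left-out cultures were alternatives.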

Additional observations from a re-analysis of the deposited data

Results flagged for a closer look

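Because *KD1* and *KD2* share their *WT* controls, the test of *KD2* against *KD1* is also the test of whether the change against *WT* differs between them. By edgeR's quasi-likelihood test and the call rule of the report, 22 of the 30 collagen chains differed between the edited lines, with 3 cultures each. Of these, 21 were higher and 1 was lower in *KD2*, against 14.7% and 8.58% of all genes tested.

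The fibrillar chains differed by a log2 fold change of 2.92 for *Col1a1*, 6.97 for *Col2a1*, 8.53 for *Col5a1*, 8.76 for *Col5a3*, 6.52 for *Col11a1*, 5.34 for *Col11a2* and 3.74 for *Col27a1*. *Col1a2* and *Col5a2*, with no count in *KD1*, were at least 79.9-fold and 74.8-fold higher in *KD2*. *Col3a1*, with 1 count in *KD1*, was 208-fold higher by summed counts (exact 95% interval 36.9 to 8253).

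*Col8a2*, at 5.29, was the one network chain called. The beaded filament chains differed by 3.56 for *Col6a1*, 5.98 for *Col6a2* and 1.89 for *Col6a3*, the last of which was below *WT* in both lines. Among chains that coat fibrils, *Col9a3* differed by 2.57, *Col12a1* by 5.75, *Col16a1* by 1.18 and *Col20a1* by 3.29, and *Col9a1* was 966-fold higher by summed counts (exact 95% interval 172.9 to 38180.0). *Col25a1* differed by 2.21 and *Col28a1* by 1.76. *Col17a1* had the opposite sign, at -2.71. For each of these 22 chains the 3 cultures of *KD2* and the 3 of *KD1* did not overlap. The 22 were chosen by their calls in the same comparison, so this adds no separate evidence. Over all 30 chains tested, called or not, 28 did not overlap, against 71.6% of all genes tested.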

How the results depend on the processing

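With the filter set to at least 10 counts in every culture, 20 chains remained tested. Of these, 11 were lower in *KD1*, 8 higher in *KD2* and 13 higher in *KD2* than in *KD1*. The same calls were made for 553, 1173 and 1181 of all 12296 genes tested. Chains at no count in *KD1* are removed by that filter. By glmTreat at a 2-fold change, 1 chain was higher and 17 lower in *KD1*, and 12 were higher and 2 lower in *KD2*. *KD2* exceeded *KD1* in 19 chains and was below it in 1. Of all 15253 genes tested, the same calls numbered 942 and 726, 1395 and 595, and 1597 and 943. With each culture left out in turn, 3 to 4 chains were higher and 20 lower in *KD1*, and 13 to 14 higher and 2 lower in *KD2*. *KD2* then exceeded *KD1* in 21 to 22 chains and was below it in 1. Of the 15483 to 15721 genes tested in those fits, 1414 to 1545 were higher and 1112 to 1173 lower in *KD1*. In *KD2*, 2229 to 2394 were higher and 984 to 1055 lower than in *WT*, and 2302 to 2412 higher and 1326 to 1391 lower than in *KD1*. Same-numbered cultures did not deviate together (mean correlation 0.0012, from -0.065 to 0.079). With the replicate block the counts of chains were 4 and 20, 13 and 2, and 21 and 1. Of all 15253 genes in that fit they were 1424 and 1136, 2206 and 1021, and 2241 and 1311. By library size alone, which moved the median of all genes in *KD2* from 0.01 to 0.12, the difference of *Col8a1* between the edited lines was 0.077 and the change of *Col9a3* in *KD2* was 0.021, both with the sign turned. Leaving out cultures moved these from -0.10 to 0.039 and from -0.26 to 0.046, and neither value is distinct from 0. The log2 fold changes of 26 chains were also recomputed under the alternatives other than glmTreat. Of these values, 1190 kept direction and call, 19 were newly called, 2 lost their call and 5 turned. The newly called were *Col17a1* in *KD1* under 13 alternatives, *Col4a5* between the edited lines under 4 and *Col15a1* in *KD2* under 2, and those lost were *Col4a4* in *KD1*. With only the 6 cultures of *KD1* and *WT*, 28 chains were tested, 18 of them lower and 4 higher in *KD1*. Of all 14344 genes tested in that fit, 965 were lower and 1396 higher. With the longest transcript as length, fibrillar chains made up 10.5% of the per-kb level in *WT*, 0.279% in *KD1* and 14.8% in *KD2*. The depth limits chains of a few counts, and the cause of the differences between the clones was not tested.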
